A study of Mus musculus with 6 samples.

Results

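The genes followed here belong to the desmosome and to its modified form in the outer skin, and were measured in mouse prostate cancer cells: Cdsn, Dsp, Jup, Pkp1, Pkp2, Pkp3, Dsg2, Dsc2, Perp and Ppl. They are 10 of the 55487 genes listed in the deposited table. The set was chosen by a measured value, since Cdsn (corneodesmosin) had the smallest p of all genes in the comparison described here. The other 9 were added for their place in the same cell junction, with earlier results of these data known. The p of Cdsn was 1.13e-09 and that of the next gene, Stard5, was 5.97e-09. These values chose Cdsn and are given as a description. Of the 10 genes, 7 had enough counts to be tested and 3 (Pkp1, Dsg2 and Dsc2) did not.

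A desmosome is a spot-like junction that ties the keratin filaments of neighbouring epithelial cells together. Desmogleins and desmocollins, cadherins of the membrane, reach across the gap between the cells. Inside each cell they bind plakoglobin and plakophilins, which in turn bind desmoplakin and other plakins that hold the filaments. In the outermost layers of skin the junction is remodelled into the corneodesmosome, and corneodesmosin is the secreted glycoprotein added to its outer face, later cut by kallikrein proteases as skin cells are shed.

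The cells were RM-1, an established line of mouse prostate cancer, sequenced as RNA in 2 groups of 3 libraries. Bhlhe22 cells carried a lentivirus that overexpresses Bhlhe22, a basic helix-loop-helix transcription factor, and vector cells carried a blank lentivirus. Both groups were the same line grown without further treatment. Whether each group was 1 clone or a pool, and whether its libraries came from separate cultures, is not stated in the labels, so p-values measure a spread between libraries that may be technical. Values per library are listed in the order of replicates 1, 2 and 3.

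As the check of the labels, Bhlhe22 had 0 counts in all 3 vector libraries and 8706 to 17995 counts in the Bhlhe22 libraries. Total counts ran from 15464709 to 25129552 per library. Bhlhe22 replicate 1 stood apart from its group: the chi-square per degree of freedom between its counts and those of the other 2 Bhlhe22 libraries was 35.7 and 47.3, against 10.8 to 13.6 for the 4 other pairs within a group. The labelled tissue was checked against markers. Of the prostate luminal markers, Hoxb13, Pbsn and Msmb had 0 counts in every library. Of 9 epithelial markers 4 were tested. The keratins Krt8 and Krt18 stood at 389 ± 7.24 and 466 ± 16.5 FPKM in vector cells (SD, n = 3), while the epithelial cadherin Cdh1 had 0 to 6 counts per library. Keratinocyte markers, which would accompany Cdsn in skin, summed to 1.07 to 1.20 FPKM in vector and 1.28 to 1.44 FPKM in Bhlhe22 libraries over 8 genes, with Krt5, Krt1 and Dsg1a at 0 counts throughout. Of the 8, Krt10 alone had enough counts to be tested, with a log2 fold change of 0.18 (edgeR adjusted p = 0.44). The part of such cells in the results was not tested. Leukocyte markers summed to 18.4 to 20.7 FPKM in vector and 20.9 to 25.1 FPKM in Bhlhe22 libraries, nearly all of it Cd68, with 5 of 7 at 0 counts. All 7 fibroblast or mesenchymal markers were tested, and 1 was higher and 2 were lower, where 19.6% of all tested genes were called. Pdgfrb had a log2 fold change of 0.53 (edgeR adjusted p = 0.015), a call lost without Bhlhe22 replicate 2 or any 1 vector replicate (0.057 to 0.072). Col1a2 had one of -2.12 (edgeR adjusted p = 0.0097), on 9 to 12 counts in vector and 2 to 3 counts in Bhlhe22 libraries, and was not called by limma on FPKM (adjusted p from 0.14 to 0.40). Col1a2 had enough counts to be tested only through the vector libraries, where it was higher, so its call is a description. Vim is described with the filaments. Of 4 endothelial markers 2 were tested and 0 were called.

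The sequence before the start of Cdsn is shown because Cdsn is the member with the largest change and Bhlhe22 belongs to a family that binds E-boxes, the motif CANNTG. The RefSeq table (GRCm38.p6) holds 2 starts for the gene, both on the plus strand of chromosome 17. The 250 bases before each are printed 5′ to 3′, with every E-box in capitals. The deposited gene model begins directly after the second window, which itself lies downstream of the upstream start on the same strand.
Cdsn, upstream start, chr17:35542851-35543100: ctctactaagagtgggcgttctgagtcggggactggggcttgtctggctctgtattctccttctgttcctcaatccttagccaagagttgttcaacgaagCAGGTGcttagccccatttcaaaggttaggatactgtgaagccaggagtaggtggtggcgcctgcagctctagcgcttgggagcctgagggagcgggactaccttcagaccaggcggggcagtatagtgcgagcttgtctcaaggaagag
Cdsn, start of the deposited model, chr17:35551878-35552127: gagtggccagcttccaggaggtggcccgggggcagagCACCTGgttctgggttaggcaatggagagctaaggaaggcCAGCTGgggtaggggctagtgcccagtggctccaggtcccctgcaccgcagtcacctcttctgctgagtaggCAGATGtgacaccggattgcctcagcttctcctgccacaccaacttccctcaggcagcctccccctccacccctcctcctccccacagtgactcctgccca

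The upstream window held 1 E-box and the window of the deposited model held 3, beginning 213, 173 and 101 bases before the start. At least 1 E-box stood in 66.2% of the 32817 RefSeq windows of this length, with a median of 1. The share of windows with as many as 3 was not counted. CANNTG includes each of the variants also searched on both strands. CAGCTG occurred once in the second window and in 13.0% of all windows, and CAGATG occurred once there and in 14.5% of all windows. CATATG (3.47% of windows) and CACGTG (6.02%) were in neither. The table also held windows for Dsp and Jup, neither of which contained an E-box. Dsg2 and Dsc2 were not looked up, and among the other members the table was matched for 3. These matches are letters in a sequence and say nothing of binding.

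Cdsn (ENSMUSG00000039518) lies at chr17:35552128-35557180 on the plus strand of GRCm38 and has 2 exons, with no exon shared with another gene. It had 554, 704 and 689 counts in vector libraries and 3908, 4823 and 6039 counts in Bhlhe22 libraries. On the CPM scale, counts scaled to library size, these were 30.7, 34.2 and 32.2 against 257, 249 and 241. All 3 Bhlhe22 libraries were far above all 3 vector libraries, and the values within each group were close together. The means were 32.4 ± 1.75 and 249 ± 8.12 CPM (SD, n = 3), a log2 fold change of 2.94 with SE 0.08, or 7.68-fold with a 95% interval from 6.79 to 8.69. The deposited FPKM values, which are also scaled to gene length, went from 12.2 ± 0.668 to 92.1 ± 2.31. Among 21936 protein-coding genes, Cdsn ranked between 2872 and 3193 by FPKM in the vector libraries and between 263 and 288 in the Bhlhe22 libraries. By size of increase it ranked 36 among the 14663 tested genes. With each library left out in turn its log2 fold change stayed between 2.90 and 2.98, and it ranked between 1 and 3 by p. Since these same libraries chose Cdsn, these values are a description.

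The membrane cadherins that corneodesmosomes and desmosomes are built on were nearly absent. Over all 9 mouse desmogleins and desmocollins (Dsg1a, Dsg1b, Dsg1c, Dsg2, Dsg3, Dsg4, Dsc1, Dsc2 and Dsc3), the sums were 8, 3 and 4 counts for vector and 7, 10 and 6 for Bhlhe22 libraries. Dsg2 (ENSMUSG00000044393, chr18:20558074-20604521, plus strand), the desmoglein of simple epithelia and heart, had 1, 0 and 0 counts in vector and 0, 0 and 1 in Bhlhe22 libraries. Dsc2 (ENSMUSG00000024331, chr18:20030633-20059554, minus strand), its desmocollin counterpart, had 2, 3 and 3 counts in vector and 0 in each Bhlhe22 library. The groups did not overlap for Dsc2, yet every value was at or under the floor of 3 counts, or 0.119 to 0.197 CPM per library, so no fold is given. Dsg1a, Dsg1b, Dsg1c and Dsg4 had 0 counts in all 6 libraries. At this depth a difference in the cadherins was not detectable. Floors and intervals from counts cover counting error only.

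**Figure D1:**
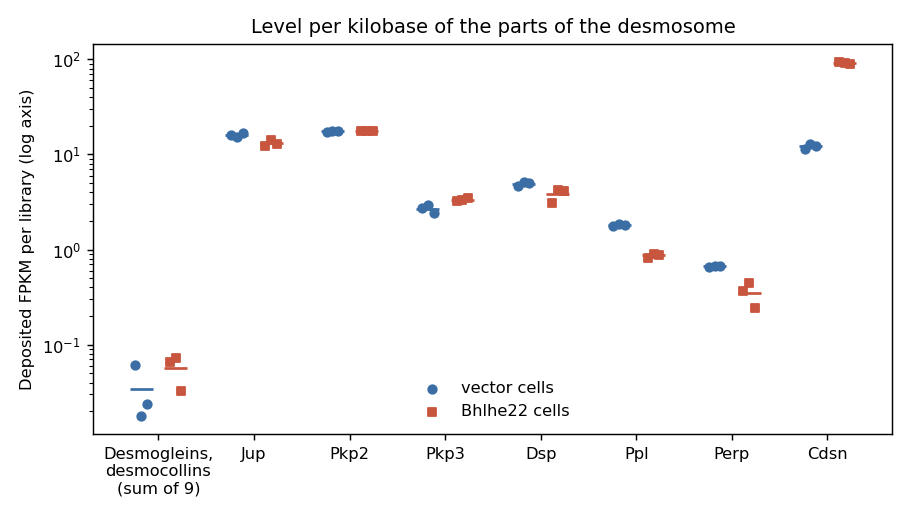
Deposited FPKM (log axis) in each library for the summed 9 desmogleins and desmocollins and for 7 members, circles for vector cells and squares for Bhlhe22 cells, with a line at each mean of 3 libraries. The summed cadherins sit between 0.0177 and 0.0732 FPKM, while Jup and Pkp2 lie above 12 FPKM in every library and Cdsn moves from 12.2 to 92.1 FPKM on average.

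Of the cytoplasmic plaque genes, all but Pkp1 had enough counts to be tested. In vector cells the order of mean FPKM was Pkp2 (17.6 ± 0.237), Jup (16.0 ± 0.701), Cdsn (12.2 ± 0.668), Dsp (4.93 ± 0.266), Pkp3 (2.68 ± 0.249), Ppl (1.82 ± 0.0531) and Perp (0.670 ± 0.0114), each SD over n = 3. Each neighbour in that order differed by more than the spread between libraries. Cdsn moved to the head of the order in Bhlhe22 cells, at 7.02 ± 0.590 times the FPKM of Jup against 0.763 ± 0.0661 times in vector cells. The order of levels depended on the length assigned to each gene. The deposited values use a length above the summed GENCODE M21 exons in 8 of the 10 members, by up to 1.84 times in Pkp3. On the GENCODE lengths, Jup (23.2 ± 1.02) stood above Pkp2 (20.1 ± 0.270), and Pkp3 (4.94 ± 0.460) was near Dsp (5.51 ± 0.297), with overlapping ranges in the vector libraries. Comparisons of 1 gene between groups do not depend on its length.

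Plakoglobin and the plakophilins, armadillo-repeat proteins, link the cadherin tails to desmoplakin. Jup (ENSMUSG00000001552, chr11:100368958-100397763, minus strand), the plakoglobin gene, stood at 148, 142 and 155 CPM in vector libraries and at 117, 134 and 122 CPM in Bhlhe22 libraries. Every Bhlhe22 library was below every vector library, by a small margin. The log2 fold change was -0.26 (SE 0.08), which did not pass the threshold (edgeR adjusted p = 0.058). Pkp2 (ENSMUSG00000041957, chr16:16213318-16272712, plus strand), the plakophilin of simple epithelia and heart, had 106, 108 and 107 CPM in vector and 109, 109 and 107 CPM in Bhlhe22 libraries. The groups overlapped. Its log2 fold change was 0.02 with a 95% interval from -0.12 to 0.16, so changes beyond 1.12-fold upward lay outside the interval.

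Pkp3 (ENSMUSG00000054065, chr7:141078218-141090510, plus strand), a plakophilin of most epithelia, was at 18.01, 19.28 and 16.0 CPM in vector libraries and at 22.1, 22.4 and 23.0 CPM in Bhlhe22 libraries. The Bhlhe22 libraries were all higher, with a log2 fold change of 0.34 (SE 0.10) that missed the threshold narrowly (edgeR adjusted p = 0.051). Pkp1 (ENSMUSG00000026413, chr1:135871395-135919207, minus strand), the plakophilin of stratified epithelia, had 0, 2 and 0 counts in vector and 0, 3 and 2 in Bhlhe22 libraries, at or under the floor throughout. Pkp2 therefore made up most of the plakophilin message, 86.8 ± 1.04% of the summed FPKM of Pkp1, Pkp2 and Pkp3 in vector cells and 84.0 ± 0.416% in Bhlhe22 cells. The share of Pkp3 was 13.5, 14.0 and 12.1% in vector and 15.7, 15.8 and 16.4% in Bhlhe22 libraries, with no overlap; an exact permutation test of 3 against 3 libraries cannot go below 0.1, so no p is given. The summed plakophilin FPKM was 20.3 ± 0.412 and 20.9 ± 0.111.

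The plakins at the inner face bind intermediate filaments. Dsp (ENSMUSG00000054889, chr13:38151294-38198577, plus strand), desmoplakin, the main filament anchor, was at 49.7, 55.1 and 53.8 CPM in vector libraries and at 33.6, 46.4 and 44.8 CPM in Bhlhe22 libraries. The lowest value belonged to Bhlhe22 replicate 1, the library that stood apart, and the groups did not overlap. The log2 fold change was -0.34 (SE 0.13, edgeR adjusted p = 0.11), and without that library it was -0.22 with an edgeR adjusted p of 0.045. In Dsp 5.2% of the exon length overlaps Gm10129 on the other strand, and the sources do not say whether counting used strand.

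Periplakin fell. Ppl (ENSMUSG00000039457, chr16:5086291-5132421, minus strand), a plakin found at desmosomes and in the cornified envelope, had 227, 274 and 278 counts in vector libraries and 91, 126 and 158 in Bhlhe22 libraries. In CPM these were 12.6, 13.3 and 13.0 against 5.98, 6.51 and 6.29. The groups were well apart and tight. Ppl went from 13.0 ± 0.365 to 6.26 ± 0.266 CPM (SD, n = 3), a log2 fold change of -1.05 (SE 0.10, edgeR adjusted p = 8.3e-04), or 2.07 times lower. It stayed called with each library left out in turn, with a log2 fold change from -1.07 to -1.03. Within the summed FPKM of Jup, Dsp and Ppl, the share of Ppl was 8.02 ± 0.321% in vector and 4.86 ± 0.208% in Bhlhe22 cells, and that sum went from 22.7 ± 0.719 to 17.9 ± 1.57 FPKM.

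Perp (ENSMUSG00000019851, chr10:18845020-18857073, plus strand), a tetraspan membrane protein of desmosomes and a known target of p53 and p63, rested on few counts. It had 23, 27 and 28 counts in vector libraries and 11, 17 and 12 in Bhlhe22 libraries, or 1.27, 1.31 and 1.31 CPM against 0.723, 0.878 and 0.478 CPM. The Bhlhe22 libraries were all lower, but their spread was wide. The log2 fold change was -0.93 (SE 0.28, edgeR adjusted p = 0.058), with a 95% interval from -1.58 to -0.27. Perp had enough counts to be tested only through the vector libraries, where it was higher. Bhlhe22 replicate 3, at 0.478 CPM, was too low for the Bhlhe22 libraries to pass the filter alone. Its difference is therefore a description. Of the p53 family and its known targets, Trp53 (log2 fold change -0.11), Mdm2 (0.06) and Cdkn1a (0.57) were tested and 0 of these 3 were called. The share called over all tested genes was 19.6%. Cdkn1a stood at 122 CPM in vector replicate 1 against 362 and 380 CPM in the other vector libraries. Trp63 had 0 to 2 counts per library and Trp73 had 0.

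**Figure D2:**
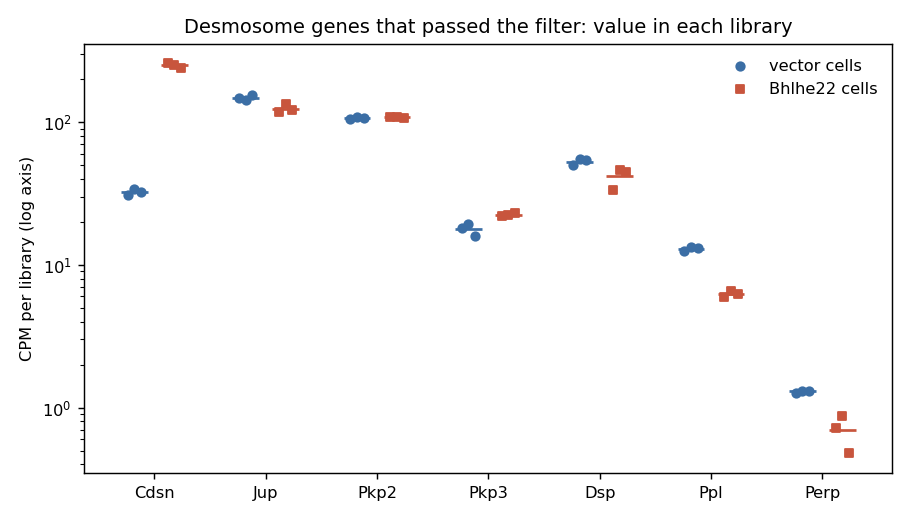
CPM (log axis) of the 7 tested members in each library, circles for vector cells and squares for Bhlhe22 cells, with a line at each mean of 3 libraries. The libraries of the groups overlap for Pkp2 alone among these 7, and the gap is widest for Cdsn, at 32.4 against 249 CPM on average.

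Across the 7 tested members, Cdsn was called higher, Ppl was called lower and 5 were not called. Over all tested genes 19.6% were called, 10.4% higher and 9.28% lower. The groups did not overlap in 6 of the 7 members, 2 higher (Cdsn and Pkp3) and 4 lower (Jup, Dsp, Ppl and Perp), against 40.8% of all tested genes. Since Cdsn was chosen on this same contrast, and the other members with its results known, nothing is read from these counts. The median log2 fold change of the 6 tested members other than Cdsn was -0.30, beside 0.01 for all tested genes. Of those 6, 5 had an unadjusted p under 0.05, as did 33.6% of all tested genes, and 1 passed after adjustment over all genes. Nothing is read from these counts either.

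**Figure D3:**
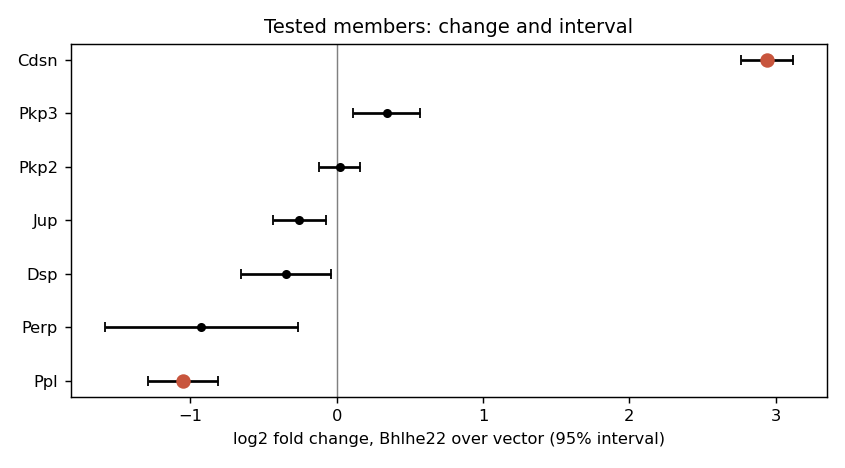
Log2 fold change of Bhlhe22 over vector cells for the 7 tested members, with the 95% interval from the edgeR fit; larger filled points mark the 2 genes called. Cdsn lies at 2.94 and Ppl at -1.05, and the intervals of Pkp3, Jup, Dsp and Perp exclude 0 although their adjusted p did not pass.

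Among the edgeR fits with 1 library left out, Jup, Pkp3 and Dsp were called only without Bhlhe22 replicate 1. Jup and Pkp3 were also called under some alternatives that kept all 6 libraries, given in the closing section. Without it 5 members were called: Cdsn, Pkp3 (edgeR adjusted p = 0.036), Jup (0.029), Dsp (0.045) and Ppl. In that fit 31.3% of all tested genes were called, against 19.6% with all libraries, so calls became more frequent over all genes and not in these members alone. Leaving out any 1 of the other 5 libraries left Cdsn and Ppl called. The directions of Jup, Pkp3, Dsp, Perp and Ppl were the same in each of these 6 fits.

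**Figure D4:**
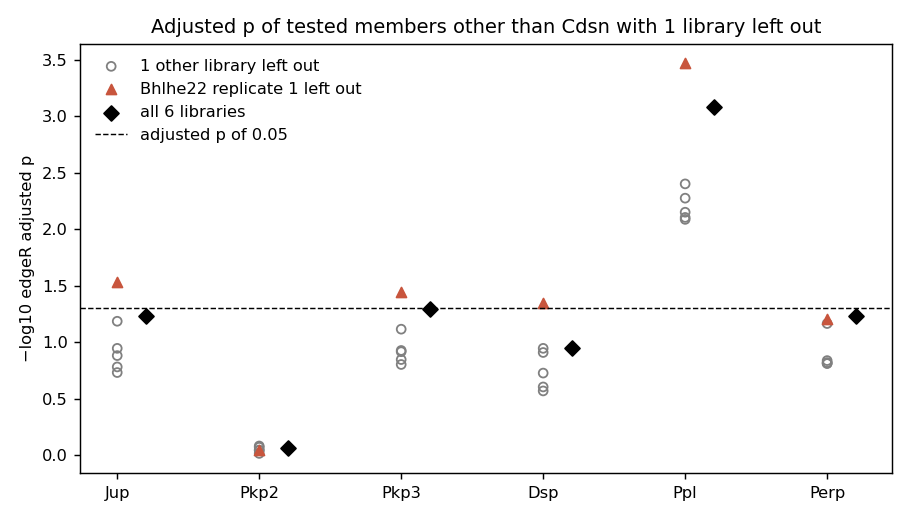
−log10 of the edgeR adjusted p for the 6 tested members other than Cdsn: diamonds for all 6 libraries, triangles without Bhlhe22 replicate 1 and open circles without 1 of the others, with a dashed line at 0.05. Ppl lies above the line throughout, and Jup, Pkp3 and Dsp cross it only in the fit without Bhlhe22 replicate 1.

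The remaining genes of the junction, from lists drawn up with earlier results of these data known, mostly had too few counts to test. Of 9 further desmosome genes 1 was tested, Pkp4, a plakophilin relative shared with adherens junctions, with a log2 fold change of 0.05 (edgeR adjusted p = 0.68). The plakin Evpl, the usual partner of periplakin in the cornified envelope, had 3 to 10 counts per library. Among 5 plakin linkers 4 were tested and 0 were called (median log2 fold change -0.35), with log2 fold changes of -0.78 for Eppk1 (edgeR adjusted p = 0.089), -0.39 for Macf1 (0.20), -0.31 for Plec (0.22) and 0.29 for Dst (0.46). Bhlhe22 replicate 1, the library that stood apart, was the lowest Bhlhe22 library for each of the 4. Their Bhlhe22 CPM were 0.526, 0.878 and 0.916 for Eppk1 and 181, 284 and 314 for Macf1. They were 442, 676 and 654 for Plec and 429, 772 and 895 for Dst. Without Bhlhe22 replicate 1, Dst was called higher (edgeR adjusted p = 0.0014) and Macf1 lower (0.046). In that fit 31.3% of all tested genes were called, and neither gene was called under any other of the 17 alternatives. Among 6 armadillo relatives 5 were tested and 0 were called (median -0.02). Ctnnb1 had a log2 fold change of -0.14. Apc, which binds beta-catenin, had the largest, at 1.02, with 28.9 ± 11.3 CPM in vector and 58.6 ± 19.6 CPM in Bhlhe22 cells and no overlap (edgeR adjusted p = 0.069). It was called with DESeq2 (adjusted p = 0.0062), with the replicate number as a block (edgeR adjusted p = 0.0044) and without vector replicate 3 (0.036), and under none of the other 14 alternatives. Of 6 enzymes known to act on desmosomes, such as Adam17 and Prkca, 0 were called (median 0.00). Over all tested genes 19.6% were called, so nothing is read from 0 calls in lists this short.

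Most genes of the cornified envelope, the skin structure beside which Cdsn acts, had too few counts to be tested. That was so for 20 of 25 listed genes, all of them protein-coding. Of all genes in the table, of every type, 73.6% were not tested, while 11942 of the 21936 protein-coding genes were tested. Of the 20 listed genes not tested, 11 had 0 counts in all 6 libraries. Among these were Flg, Hrnr, Casp14 and the corneodesmosin-cutting proteases Klk5 and Klk7. Of the 5 tested, 1 was called higher and 0 lower, beside 19.6% called over all tested genes, with a median log2 fold change of 0.08. The called gene was Sprr1a, a small proline-rich envelope protein, at 3.01 ± 0.182 CPM in vector and 4.65 ± 0.823 CPM in Bhlhe22 cells, a log2 fold change of 0.62 (edgeR adjusted p = 0.045). That call was lost whichever library was left out, with edgeR adjusted p from 0.060 to 0.14. Ctsd, a lysosomal protease of most cell types, was by far the most abundant of the 5, at 119 ± 9.76 FPKM in vector and 116 ± 16.5 FPKM in Bhlhe22 cells, and was not called. Lor, the loricrin gene, had a log2 fold change of 0.20 (edgeR adjusted p = 0.40).

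Among 15 intermediate filament genes 8 were tested, of which 2 were higher and 2 lower (median log2 fold change 0.16). The share called over all tested genes was 19.6%. Krt8, a keratin of simple epithelia, fell from 389 ± 7.24 to 276 ± 15.2 FPKM (log2 fold change -0.47, edgeR adjusted p = 0.0047), while its partner Krt18 had a log2 fold change of 0.00. Krt19 rose from 157 ± 4.03 to 208 ± 19.0 CPM (0.40, edgeR adjusted p = 0.015), but was not called without any 1 vector replicate (edgeR adjusted p from 0.063 to 0.074). Krt16, a keratin of stressed skin, rose from 1.78 ± 0.105 to 3.48 ± 0.188 CPM (0.96, edgeR adjusted p = 0.0070). Vim, the mesenchymal filament vimentin, had a log2 fold change of -0.33 and, of the fits with 1 library fewer, kept its call only in the one without Bhlhe22 replicate 1, the edgeR adjusted p otherwise lying between 0.065 and 0.11.

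Classical adherens junctions, the neighbours of desmosomes at the membrane, gave 1 higher and 2 lower of 10 tested genes (12 listed, median log2 fold change -0.19). Over all tested genes 19.6% were called. Nectin2 rose by 0.73 on the log2 scale (edgeR adjusted p = 0.0013). Nectin1 had a log2 fold change of -0.51 and Vcl, which encodes vinculin, of -0.61. Nectin1 was not called without vector replicate 1 (edgeR adjusted p = 0.058) or vector replicate 3 (0.066). Vcl was not called without Bhlhe22 replicate 2 (0.065) or any 1 vector replicate (0.098 to 0.12), and 25.5% of its exon length overlaps Ap3m1 on the other strand. Of the classical cadherins measured here (Cdh1, Cdh2 and Cdh3), Cdh2, N-cadherin, had the highest level, at 8.37 ± 0.277 FPKM in vector and 6.45 ± 0.903 FPKM in Bhlhe22 cells (log2 fold change -0.35, edgeR adjusted p = 0.060).

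Transcription factors known to drive or repress epithelial junction genes moved in both directions. Of 15 epidermal and epithelial factors 6 were tested, with 2 higher and 1 lower (median log2 fold change 0.13), beside 19.6% called over all tested genes. Klf4, a factor of the skin barrier, rose by 1.06 on the log2 scale, with means of 38.7 ± 1.98 and 80.8 ± 5.87 CPM (edgeR adjusted p = 4.3e-04). Grhl1, a grainyhead-like factor known to control desmosomal cadherins in skin, had 3, 8 and 8 counts in vector libraries and 17, 19 and 22 in Bhlhe22 libraries (log2 fold change 1.62, edgeR adjusted p = 0.019). Its call held without Bhlhe22 replicate 1 or 3 and was lost otherwise, with edgeR adjusted p from 0.054 to 0.060 without Bhlhe22 replicate 2 or any 1 vector replicate. Grhl1 had enough counts to be tested only through the Bhlhe22 libraries, at 0.88 to 1.12 CPM against 0.17 to 0.39 CPM in vector. Its call is therefore a description. Its relative Grhl2, a factor of simple epithelia, fell from 16.5 ± 1.62 to 10.5 ± 1.04 CPM (-0.66, edgeR adjusted p = 0.011). Of 6 epithelial repressors, all tested, 1 was called: Snai2, the Slug gene, rose by 1.86 on the log2 scale, with means of 8.96 ± 0.926 and 32.6 ± 1.62 CPM (edgeR adjusted p = 1.3e-04). Klf4, Grhl2, Snai2, Krt8, Krt16 and Nectin2 kept their calls whichever library was left out.

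Position was not used to choose the members, so the genes around Cdsn were examined. There were 28 other genes within 200 kb of it in GRCm38, in the major histocompatibility region, and 7 of them were tested. Of these, 0 were higher and 1 was lower, beside 19.6% called over all tested genes. Their log2 fold changes ran from -0.60 to 0.18, with a median of 0.08. The nearest tested gene, Cchcr1, ends 21.1 kb before Cdsn and had 59.3 ± 3.28 CPM in vector and 55.8 ± 3.52 CPM in Bhlhe22 cells (log2 fold change -0.09, edgeR adjusted p = 0.51). Tcf19, 35.3 kb before it, fell from 42.5 ± 1.73 to 28.1 ± 2.20 CPM (-0.60, edgeR adjusted p = 0.0045). On the other side Vars2 (0.02), Gtf2h4 (0.13) and Ddr1 (0.08) were not called, nor were H2-Q4 (0.16) and Gm8750 (0.18) farther before Cdsn, all in log2 fold change. Psors1c2, the nearest protein-coding gene before Cdsn at 17.5 kb, had 7, 7 and 8 counts in vector and 14, 5 and 4 in Bhlhe22 libraries, and 2300002M23Rik, 10.3 kb after it, had 0 throughout.

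**Figure D5:**
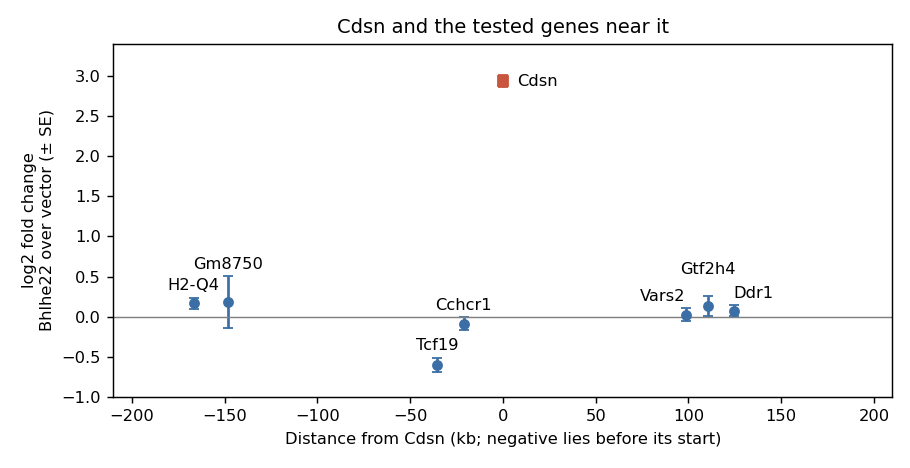
Log2 fold change (± SE) of Bhlhe22 over vector cells for Cdsn, drawn as a square, and the 7 tested genes within 200 kb, against the distance in kb between gene spans. The neighbours lie between -0.60 and 0.18, and Cdsn at 2.94.

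By the rule fixed for likeness, the genes whose log2 CPM followed Cdsn most closely over the 6 samples were Slc1a7 (Pearson r = 0.9998), a glutamate transporter, Leprotl1, Otub2, a deubiquitinase, Dld, a subunit of mitochondrial dehydrogenase complexes, and Tcea1, a transcription elongation factor. Slc1a7 went from 13.1 ± 0.691 to 68.8 ± 0.502 CPM. Of 11941 protein-coding genes compared, 784 (6.57%) had r above 0.95, since any gene with 2 tight and separate groups scores high. With 6 samples in 2 groups the ranking is a description of these libraries.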

How the data were processed

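The deposited table holds counts per gene and FPKM for 6 libraries. The submitters' processing notes name GRCm38, HISAT2 2.1.0, CASAVA 1.8, edgeR and StringTie 1.3.4b, with no role given. No source used here gives the annotation release, filters or strandedness. The deposited FPKM were made from the same counts with 1 length per gene and the table's own totals: the implied length was equal across libraries, within 0.001%, for 10435 of 10435 genes with at least 100 counts in each.

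Counts were tested with edgeR 4.0.16 in R 4.3.3: TMM scaling, filterByExpr (minimum count 10, minimum total 15), quasi-likelihood fits with robust estimation, and p-values adjusted (Benjamini-Hochberg) over 14663 tested genes at 0.05. CPM use TMM-scaled library sizes. Standard errors are the log2 fold change over the square root of F, and 95% intervals use the fit's degrees of freedom. On simulated counts of this comparison (14444 genes) the fit found 21.6% of 97 genes given a 1.5-fold change, 75% of 48 given 2-fold and 98% of 50 given 4-fold. Of its calls 12.4% were false, above the threshold. Far fewer genes were changed in the simulation than were called in the data, so these rates may not carry over to the data.

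Members and lists were chosen with earlier results of these data known. The text names all members, up to 4 called genes per list, tested genes within 200 kb of Cdsn and the 5 most correlated with it (log2 CPM, prior count 2); further list genes were picked with their values in view. Strands and exons are from GENCODE M21. Promoter motifs were counted in the 250 bases before each start, not the planned 300, to leave out the bases after that start. Alternatives used limma 3.58.1 and DESeq2 1.42.0; all value columns were used. Some listed markers are not reported here.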

Additional observations from a re-analysis of the deposited data

How the results depend on the processing

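Cdsn and Ppl were called under all 17 alternatives, with log2 fold changes from 2.82 to 2.98 and from -1.07 to -0.60. Cdsn was chosen by its p in these same libraries, so its calls here are a description and no support. The number of genes called with 1 library left out ran from 1348 to 4682, against 2881, and the number of members called from 2 to 5, against 2. It was 4 with DESeq2, which added Pkp3 and Jup, and 4 with limma on log2(FPKM + 1), which added Jup and Perp; the cause was not tested. Library size scaling added Jup, limma with a pseudocount of 0.1 added Perp, and limma-voom and a filter of 1 CPM in 3 samples each added Pkp3. The log2 fold change of Pkp2 changed sign, at -0.0017 with library size scaling and at -0.0015, -0.0014 and -0.0014 in the limma fits on FPKM with a pseudocount of 0.1, of 1 and of 1 without the filter. The Pkp3 share was 2.76 percentage points higher in Bhlhe22 cells, 2.19 to 3.17 points with 1 library left out, and 3.76 points on GENCODE lengths. The Ppl share was -3.16 points apart and from -3.29 to -2.98 points with 1 left out, but -2.48 points on GENCODE lengths, which give Jup more weight. With the replicate number as a block 2079 genes and the same 2 members were called. Same-numbered libraries had correlations of 0.029, 0.021 and 0.016 in their deviations from group means. Differently numbered ones had correlations from -0.078 to 0.063. These values show no sign of pairing by number, but with 3 libraries per group they cannot exclude it. Near Cdsn 1 gene was called in every fit, a check added after seeing the data.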
